A study of Mus musculus with 6 samples.

Results

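The genes described here are 36 glycolysis and hypoxia genes: the enzymes that carry glucose to lactate, the genes that control entry of pyruvate into the mitochondrion, the factors that sense oxygen, and target genes of those factors. They were chosen by symbol from the 24129 gene rows of a normalized count table, and 35 of them had a row. The table came from RNA sequencing of T1 and T2 cells, which are 2 tumor cell populations isolated from a 4T1 primary tumor, with 3 replicates each. 4T1 is a mouse mammary tumor line from the BALB/c strain, used as a model of triple negative breast cancer, and the injected cells carried GFP. T1 cells (labelled 4T1A) were low in GFP, adherent, epithelial in shape, fast growing and aggressive in mice. T2 cells (labelled 4T1NA) were high in GFP, round, slow growing, less aggressive and loosely attached, and were passaged without trypsin. According to the paper, GFP-positive cells outgrew a cultured fibroblast fraction of the tumor, and T1 and T2 were sorted from them by GFP. Both populations grew in DMEM/F-12 medium with 10% FBS and antibiotics, and no low-oxygen treatment of either was described. Each population is a single isolate, so that T1 against T2 compares these isolates, and the parental 4T1GFP cells were not analysed here.

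Glycolysis splits glucose into pyruvate in the cytosol, and lactate dehydrogenase turns pyruvate into lactate when it is not burned. Pyruvate dehydrogenase is the gate from glycolysis to the mitochondrial citric acid cycle, and it is switched off by kinases (the Pdk genes) and switched on by phosphatases (the Pdp genes). Hypoxia inducible factors (HIF) are kept low by prolyl hydroxylases (the Egln genes) and the Vhl protein when oxygen is present, and in low oxygen they switch on many glycolytic enzymes together with genes for pH control, mitophagy and vessel growth.

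Read counts could be recovered from the table, and between 18133227 and 20839686 reads fell on genes in each library. Replicates of a population differed by more than counting noise, with a chi-square per degree of freedom of 8.26 to 26.1, and T1 replicate 3 stood farthest from its group (24.4 and 26.1 against 8.26 for the other T1 pair). In T2 cells, replicate 2 stood apart (16.0 and 20.8 against 11.05 for the other pair). The epithelial markers Epcam, Cdh1, Krt8, Krt18, Krt14 and Krt5 summed to 64001 to 69949 normalized counts in T1 cells and to 37480 to 43407 in T2 cells, and Krt5 had no read. Epcam was at 3141 ± 314 (SD, n = 3) in T1 and 34.7 ± 3.49 in T2 cells. Cdh1 was at 14748 ± 908 and 465 ± 16.2, and Krt14 at 3795 ± 77.0 and 3.04 ± 3.70, while Krt8 and Krt18 did not pass the test. Of 6 fibroblast markers, Col3a1, Lum and Pdgfrb had no read and the sum was 20.1 to 40.0 in T1 and 0 to 0.979 in T2 libraries. Of 6 leukocyte markers, Tyrobp, Cd3e and Adgre1 had no read and the sum was 0 to 6.51 in T1 and 7.17 to 14.8 in T2 libraries. The 4 endothelial markers summed to at most 5.29, with Kdr at 0, and the 3 adipocyte markers to at most 0.928, with Plin1 and Lep at 0. The part of these low marker levels in the results was not tested. In bulk RNA, fewer cells with a transcript and less of it per cell cannot be told apart, and p-values measure the spread between these libraries.

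Of the 36 genes, 30 had a mean of at least 10 normalized counts and were tested. Most of the glycolytic enzymes did not pass the test, while single genes at the pyruvate gate, among the oxygen sensors and among the HIF targets differed several fold, in both directions. In all, 13 of the 30 tested genes (43.3%) passed an adjusted p of 0.01 in limma on log2(normalized count + 1), against 49.5% of all 11514 genes tested. Of these, 5 were higher in T1 cells (25.1% of all genes were) and 8 were lower in T1 cells (24.4% of all genes were). The median log2 fold change, given throughout as T1 minus T2, was -0.09 for the 30 genes and -0.0055 for all genes, and the median absolute log2 fold change was 0.33 against 0.45. The 3 T1 and 3 T2 values did not overlap for 17 of the 30 genes, while they did not overlap for 68.1% of all genes. The share called, the share higher in T1 and the share without overlap were below those of all genes, and the share lower in T1 was close to it. Without T1 replicate 3, 14 of the 30 genes passed, and without T2 replicate 2, 12 did.

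The study's filters were an adjusted p under 0.01 and a log2 fold change above 2, and they are applied here in both directions. With them, 6 of the 30 genes passed, beside 8.37% of all genes. Pdp1, Egln3, Bnip3 and Eno2 were lower in T1 cells, and Car9 and Car12 were higher in T1 cells. All 6 passed the adjusted p in every one of the 17 alternative settings. The plot of normalized counts by library shows these 6 genes as the ones whose T1 and T2 points lie farthest apart.

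**Figure D1:**
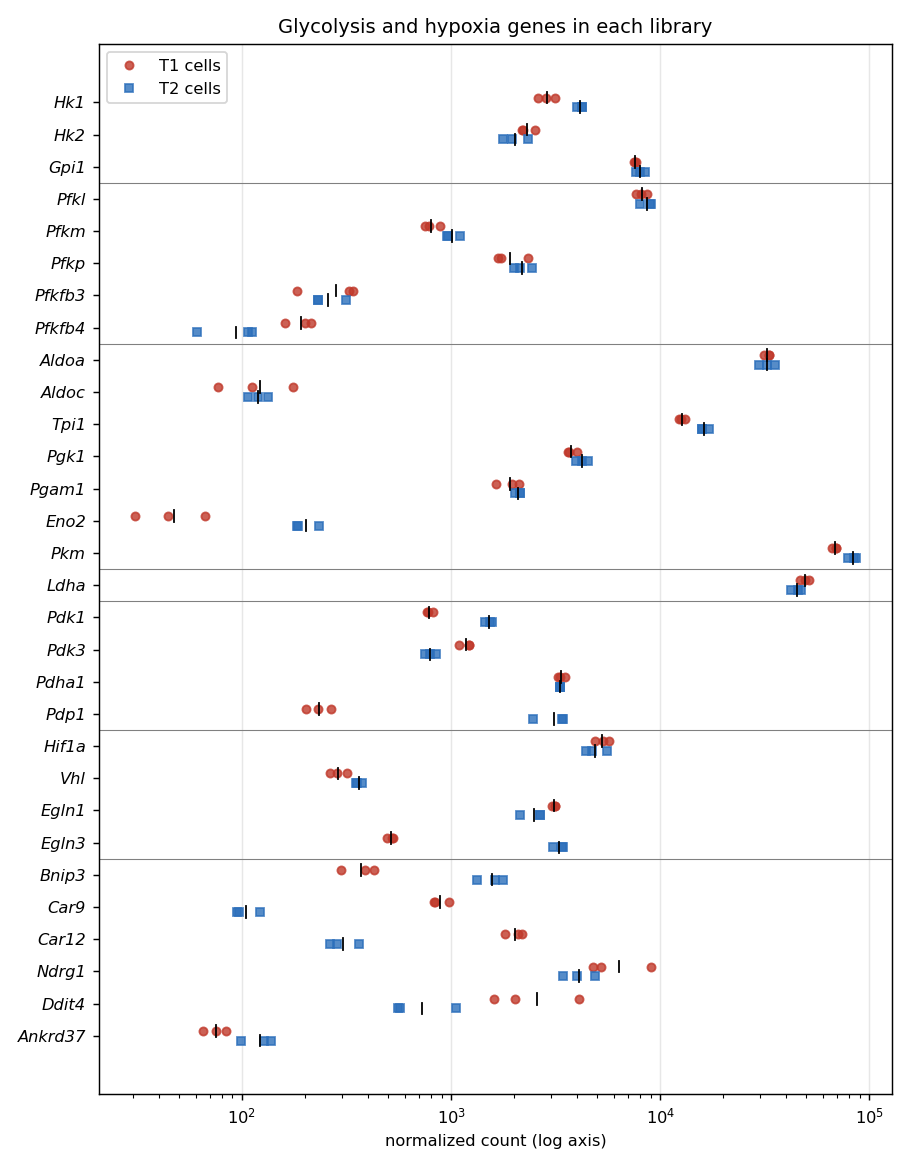
Normalized count (log axis) of the 30 tested genes in the 3 T1 (circles) and 3 T2 (squares) libraries, with a black line at each mean and grey lines between roles. From the top, the roles are glucose entry, the phosphofructokinase step, lower glycolysis, lactate dehydrogenase, pyruvate dehydrogenase control, oxygen sensing and HIF targets. Pdp1, Egln3, Bnip3 and Eno2 lie to the right in T2, Car9 and Car12 to the right in T1, and Aldoa, Pdha1 and Hif1a overlap.

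HIF binds the letters ACGTG or GCGTG, so these were looked for on both strands of the promoter windows in RefSeq (GRCm38.p6, the same assembly as mm10), each with 250 bases before and 50 after a gene's start. Windows were found for 33 of the 36 genes, 46 windows in all, and Ndrg1, Pdp1 and Epas1 had none. ACGTG stood in a window of 57.6% of the 33 genes and of 21.8% of all 27025 genes with a window, and GCGTG in 60.6% against 35.2%. A gene was counted if any of its windows held the letters, and all genes had 32851 windows. Counted by window, ACGTG stood in 47.8% of the 46 windows and in 19.6% of all windows, and GCGTG in 54.3% against 32.4%. The genes compared with were not limited to the 11514 tested here, and the base composition of the windows was not matched. HIF targets were among the genes chosen, so a higher share may follow from the choice, which was not tested. ACGTG also lies within the E-box letters CACGTG, which other factors bind. The windows of the 5 genes that passed both filters and had one are shown because these genes moved in opposite directions, with matches on either strand in capitals.
Egln3: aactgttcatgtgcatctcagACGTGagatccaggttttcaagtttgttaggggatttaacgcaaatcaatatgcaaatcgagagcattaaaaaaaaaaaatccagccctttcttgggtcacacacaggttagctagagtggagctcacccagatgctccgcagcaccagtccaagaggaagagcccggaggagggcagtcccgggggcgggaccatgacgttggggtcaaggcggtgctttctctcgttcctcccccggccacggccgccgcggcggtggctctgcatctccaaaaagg
Bnip3: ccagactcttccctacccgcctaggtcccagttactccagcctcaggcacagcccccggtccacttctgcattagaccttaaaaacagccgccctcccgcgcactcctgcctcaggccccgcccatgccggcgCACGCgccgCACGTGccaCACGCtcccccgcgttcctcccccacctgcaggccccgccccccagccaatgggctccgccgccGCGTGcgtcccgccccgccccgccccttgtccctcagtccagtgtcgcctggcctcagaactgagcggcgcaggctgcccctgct
Eno2: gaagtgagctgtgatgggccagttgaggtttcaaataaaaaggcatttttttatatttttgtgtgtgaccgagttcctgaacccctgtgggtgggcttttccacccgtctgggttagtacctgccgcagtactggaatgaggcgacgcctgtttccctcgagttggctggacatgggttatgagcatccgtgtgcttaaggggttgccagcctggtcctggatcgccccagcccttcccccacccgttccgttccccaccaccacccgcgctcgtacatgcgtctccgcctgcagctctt
Car9: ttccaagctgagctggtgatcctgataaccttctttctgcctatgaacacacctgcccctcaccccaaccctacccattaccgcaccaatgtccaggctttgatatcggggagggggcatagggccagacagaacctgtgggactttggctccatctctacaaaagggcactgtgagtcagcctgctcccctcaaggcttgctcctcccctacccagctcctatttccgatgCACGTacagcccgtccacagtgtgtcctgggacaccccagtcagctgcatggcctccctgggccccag
Car12: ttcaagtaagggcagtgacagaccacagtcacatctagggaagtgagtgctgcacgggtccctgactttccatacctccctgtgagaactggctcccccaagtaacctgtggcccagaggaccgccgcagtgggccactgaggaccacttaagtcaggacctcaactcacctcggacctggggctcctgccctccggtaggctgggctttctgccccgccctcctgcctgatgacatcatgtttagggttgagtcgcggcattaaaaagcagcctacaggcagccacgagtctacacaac
The Egln3 window (chr12:54203825-54204124, minus strand) held 1 ACGTG, 229 bases before the start. The Bnip3 window (chr7:138909457-138909756, minus strand) held ACGTG on both strands in overlapping letters, 108 and 107 bases before the start, and 3 GCGTG matches. The Car9 window (chr4:43506776-43507075, plus strand) held 1 ACGTG on the other strand, 18 bases before the start. The windows of Eno2 (chr6:124769624-124769923, minus strand) and Car12 (chr9:66713436-66713735, plus strand) held neither. Genes with a match were thus found among those higher and those lower in T1 cells. A match is a run of letters and no binding was measured.

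The entry of glucose was examined first. Hexokinase traps glucose in the cell as glucose 6-phosphate, and Hk1 and Hk2 are its main forms outside the liver. Hk1 (chr10:62268855-62379908, minus strand) had 2592, 2836 and 3155 normalized counts in T1 replicates 1, 2 and 3, and 4248, 4220 and 3998 in the T2 replicates. All T2 libraries were above all T1 libraries, and the log2 fold change was -0.54 ± 0.09 (SE), with a limma adjusted p of 0.000287. Hk2 (chr6:82725025-82774454, minus strand) had 2202, 2186 and 2505 in T1 and 1962, 2344 and 1778 in T2 libraries. These groups overlapped, and Hk2 did not pass, with a log2 fold change of 0.19 ± 0.11 (SE) and a limma adjusted p of 0.158. Per length of exon, Hk1 made up 46.5% ± 1.24 (SD, n = 3) of the Hk1 and Hk2 level in T1 cells and 59.0% ± 2.89 (SD, n = 3) in T2 cells. The 2 ranges of this share did not overlap, and the exact permutation test gave p = 0.1 (two-sided), the smallest that 3 against 3 can give. Gpi1, which converts glucose 6-phosphate to fructose 6-phosphate, was at 7568 ± 77.9 (SD, n = 3) in T1 and 8033 ± 417 in T2 cells and did not pass.

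Phosphofructokinase is the committed step of glycolysis, and the Pfkfb enzymes set the level of its activator, fructose 2,6-bisphosphate. None of the 3 phosphofructokinase genes passed. Pfkl was the main form in both populations, with 76.1% ± 1.18 (SD, n = 3) of the summed per-length level in T1 and 73.6% ± 1.88 in T2 cells, and these ranges overlapped. Pfkm held 15.04% ± 0.191 in T1 and 17.2% ± 2.16 in T2 cells, without overlap (exact permutation p = 0.1, two-sided). The log2 fold changes were -0.09 for Pfkl, -0.32 for Pfkm (limma adjusted p = 0.0173) and -0.20 for Pfkp. Without T1 replicate 3, Pfkm and Pfkp passed, with log2 fold changes of -0.39 and -0.35 and limma adjusted p of 0.00615 and 0.00873.

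Among the activator enzymes, Pfkfb4 (chr9:108991778-109032228, plus strand) had 199.98, 213.9 and 161.0 normalized counts in T1 and 60.7, 106.5 and 112.3 in T2 libraries. All T1 libraries were above all T2 libraries, with T2 replicate 1 the lowest, and the log2 fold change was 1.07 ± 0.24 (SE), with a limma adjusted p of 0.00295. The call was lost without T1 replicate 1 (adjusted p = 0.0122 in limma) and without T1 replicate 2 (adjusted p = 0.0140 in limma). Pfkfb3, the other form, did not pass and had a log2 fold change of 0.08 ± 0.23 (SE), with T1 values of 182.5 to 338.6 and T2 values of 231.1 to 314.3. Fbp1, which runs the phosphofructokinase step in reverse during glucose synthesis, was listed at 0 in all 6 libraries.

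Lower glycolysis splits the sugar and harvests ATP and NADH. Of its 9 genes, 7 were tested, and Tpi1, Eno2 and Pkm passed, all lower in T1 cells (42.9% called, beside 49.5% of all genes). Pkm (chr9:59656368-59679375, plus strand), the pyruvate kinase of tumor cells and the last ATP-making step, had 69223, 65987 and 69127 normalized counts in T1 and 86631, 84204 and 79022 in T2 libraries. The T2 values were all higher, and the log2 fold change was -0.29 ± 0.08 (SE), with a limma adjusted p of 0.00814. This call was near the threshold and held in 8 of 17 alternative settings, and 25.8% of the 50-base words of its exons also occurred in other annotated genes. Tpi1, which interconverts the triose phosphates, had 12330 to 13068 in T1 and 15747 to 17111 in T2 libraries, with a log2 fold change of -0.35 ± 0.07 (SE) and a limma adjusted p of 0.00133.

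Eno2 (chr6:124760053-124769673, minus strand), the enolase best known from neurons and endocrine cells, had 44.4, 30.7 and 66.4 normalized counts in T1 and 186.0, 234.5 and 183.7 in T2 libraries. It was low in both populations, and each T2 library was more than any T1 library. Its log2 fold change was -2.13 ± 0.27 (SE), with a limma adjusted p of 5.83e-05, and the T2 mean was 4.27 times the T1 mean. Without T1 replicate 2 the log2 fold change was -1.86. Eno1, the main enolase, had no row. Its near copy Eno1b, which is not one of the 36 genes, was at 22625 ± 437 (SD, n = 3) in T1 and 17509 ± 1088 in T2 cells, with a log2 fold change of 0.37 ± 0.07 (SE) and a limma adjusted p of 0.00128. As 85.2% of its 50-base words were shared with Eno1 or other copies, reads of these genes cannot be told apart.

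The other 4 tested genes of lower glycolysis did not pass. Aldoa, the aldolase of most tissues, was at 32491 ± 1075 (SD, n = 3) in T1 and 32551 ± 2930 in T2 cells. Its fold change was nearest to 0 of all 30 genes, at 0.00 ± 0.08 (SE), and its sign changed between settings. Aldoc, the brain form, had 0.332% of the per-length aldolase level in T1 and 0.330% in T2 cells. Pgk1 and Pgam1, which work on either side of 3-phosphoglycerate, had log2 fold changes of -0.17 and -0.15, with limma adjusted p of 0.0803 and 0.214. Copies are frequent for both, and 53.9% of the 50-base words of Pgk1 and 36.2% of those of Pgam1 occurred in other annotated genes.

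Gapdh, the dehydrogenase at the centre of the pathway and a usual reference gene, had 1 read in T1 replicate 1 and none in the other 5 libraries. It is listed at 0 although every cell uses it, and so nothing is read from its level. Its exons share 25.1% of their 50-base words with copies and overlap Iffo1 on the other strand. Whether either bears on the count of Gapdh was not tested. Its row, like the missing row of Eno1, shows that the enzyme path was not measured in full.

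Lactate dehydrogenase A favours the making of lactate and lactate dehydrogenase B its use. Ldha (chr7:46841475-46855627, plus strand) had 48997, 51166 and 46820 normalized counts in T1 and 47296, 45709 and 42333 in T2 libraries. The groups overlapped, and the log2 fold change of 0.12 ± 0.08 (SE) did not pass, with a limma adjusted p of 0.208. It passed in 1 of 17 settings, quantile normalization, with a log2 fold change of 0.27 and a limma adjusted p of 0.00738. Ldhb was listed at 2 reads in T1 replicate 2 and at 0 in the other 5 libraries, with 20.99% of its 50-base words shared with a copy.

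Per kilobase of exon, Ldha, Pkm, Aldoa and Tpi1 were the 4 highest of the 30 genes in both populations. In T1 cells Ldha led at 14802 ± 657 normalized counts per kilobase (SD, n = 3), followed by Pkm at 13620 ± 368 and Aldoa at 11161 ± 369. In T2 cells Pkm led at 16654 ± 777, followed by Ldha at 13629 ± 766 and Aldoa at 11182 ± 1006. In both populations the libraries of Ldha and Pkm did not overlap, so their order per kilobase differed between T1 and T2. In counts not divided by length, Pkm was above Ldha in both, at 68112 and 48994 in T1 and 83286 and 45113 in T2 cells. Lower in the order, Hk2, Car9 and Hk1 ranked 15, 16 and 17 in T1 cells within each other's spread. The largest moves in rank were those of Egln3 (20 in T1 and 8 in T2), Pdp1 (25 and 14), Ddit4 (6 and 17), Bnip3 (21 and 12), Car9 (16 and 25) and Car12 (18 and 27).

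Over the 16 tested genes from hexokinase to lactate dehydrogenase, 1 was higher in T1 (Pfkfb4), 4 were lower (Hk1, Tpi1, Eno2 and Pkm) and 11 did not pass, where 49.5% of all genes passed. Their median log2 fold change was -0.12, and only Eno2 and Pfkfb4 had an absolute value above 1. All 19 genes of this path with a row together held 0.993%, 0.997% and 1.0004% of the summed normalized counts in T1 and 1.15%, 1.11% and 1.05% in T2 libraries. Each T2 share was above each T1 share, with an exact permutation p of 0.1 (two-sided), the smallest possible. Pkm, Ldha and Aldoa made up 77.9% ± 0.556 (SD, n = 3) of this share in T1 and 76.6% ± 0.247 in T2 cells. Without Pkm the shares were 0.643% ± 0.0120 and 0.666% ± 0.0344 and overlapped (exact permutation p = 0.5, two-sided). All these shares lack Eno1, and Gapdh added almost no reads, so they cover only part of the path. Eno1b, at 22625 ± 437 (SD, n = 3) in T1 and 17509 ± 1088 in T2 cells, was not counted either. The genes counted include Pfkfb3, Pfkfb4 and Fbp1, which regulate or reverse the phosphofructokinase step.

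**Figure D2:**
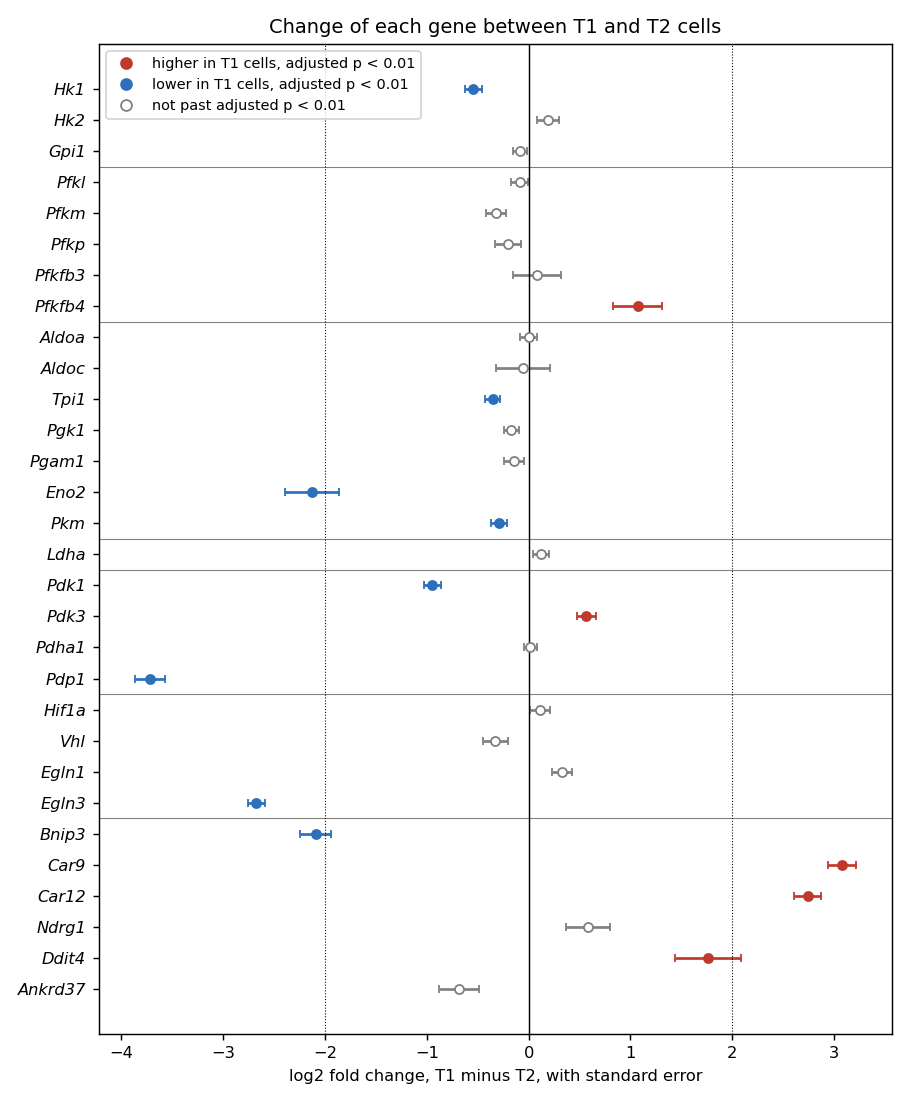
Log2 fold change (T1 minus T2, with its standard error) of the 30 tested genes, in the same order of roles, with dotted lines at -2 and 2. Filled points passed an adjusted p of 0.01, and most points of the enzyme path lie close to 0 while Eno2 of that path and Pdp1, Egln3, Bnip3, Car9 and Car12 lie beyond the dotted lines.

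At the pyruvate gate, 3 of the 4 genes passed (75.0%, beside 49.5% of all genes). Pdp1 (chr4:11958184-11966452, minus strand), the calcium-sensitive phosphatase that reactivates pyruvate dehydrogenase, had 202.1, 230.6 and 267.4 normalized counts in T1 and 3446, 2457 and 3407 in T2 libraries. The lowest T2 library was far above the highest T1 library. The T2 mean was 13.3 times the T1 mean, and the log2 fold change of -3.72 ± 0.15 (SE), with a limma adjusted p of 2.23e-08, was the largest in size of the 30 genes. Pdha1, the catalytic alpha subunit that these enzymes act on, did not pass, at 3354 ± 119 (SD, n = 3) in T1 and 3311 ± 18.7 in T2 cells, and its log2 fold change was 0.02 ± 0.07 (SE).

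The kinases moved in opposite directions. Pdk1 (chr2:71873224-71903858, plus strand), a HIF target, had 773.5, 823.1 and 764.2 normalized counts in T1 and 1567, 1447 and 1538 in T2 libraries. Its T2 values were all higher, with a log2 fold change of -0.95 ± 0.08 (SE) and a limma adjusted p of 5.18e-06. Pdk3 (chrX:93764607-93832201, minus strand) had 1094, 1221 and 1223 in T1 and 790.2, 748.4 and 846.2 in T2 libraries. Its T1 values were all higher, with a log2 fold change of 0.57 ± 0.09 (SE) and a limma adjusted p of 0.000375. Per length, Pdk3 was 82.0% ± 0.915 (SD, n = 3) of the Pdk1 and Pdk3 level in T1 and 61.4% ± 1.06 in T2 cells, without overlap (exact permutation p = 0.1, two-sided).

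The other genes around this gate were read from the same fit. Of 10 tested, 6 were higher and 2 lower in T1 cells, and 2 (Mpc1 and Pdpr) did not pass, which is 80.0% called beside the 49.5% of all genes. Pdp2, the other phosphatase, had 573.5, 595.2 and 492.9 normalized counts in T1 and 107.7, 127.0 and 115.1 in T2 libraries. It was thus higher in every T1 library, the opposite of Pdp1, with a log2 fold change of 2.24 ± 0.14 (SE) and a limma adjusted p of 3.82e-07. Dlat and Pdhx, which build the core of the complex, were also higher in T1 cells, with log2 fold changes of 0.87 ± 0.08 (SE) and 0.74 ± 0.10 (SE). Pdk2, another kinase, was low and lower in T1 (18.6 ± 1.77 against 53.5 ± 7.58, SD, n = 3), as was Pcx, which carries pyruvate to oxaloacetate (77.0 ± 5.51 against 211 ± 19.2). The plot of the gate by library shows the phosphatases on opposite sides and the Pdha1 points overlapping.

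**Figure D3:**
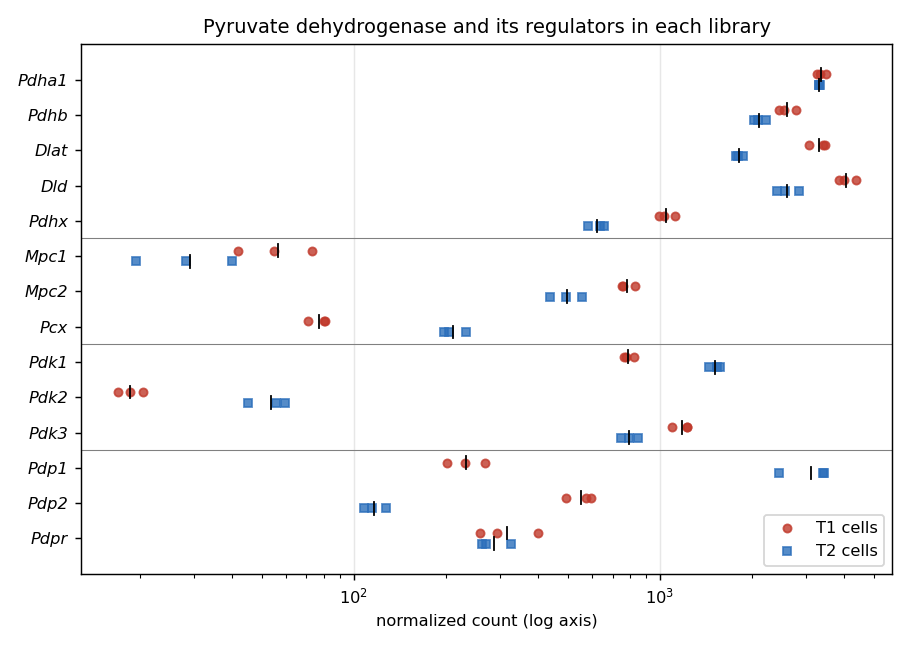
Normalized count (log axis) in the 3 T1 (circles) and 3 T2 (squares) libraries of the pyruvate dehydrogenase subunits, the pyruvate carriers with Pcx, the kinases and the phosphatases with Pdpr, with a black line at each mean. Pdp1 lies to the right in T2 and Pdp2 to the right in T1, Pdk1 to the right in T2 and Pdk3 to the right in T1, and Pdha1 overlaps.

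The oxygen-sensing genes came next. Hif1a (chr12:73901375-73947530, plus strand), the regulated subunit of HIF, had 4883, 5308 and 5674 normalized counts in T1 and 4412, 4730 and 5562 in T2 libraries. The groups overlapped, and the log2 fold change of 0.11 ± 0.10 (SE) did not pass, with a limma adjusted p of 0.331. HIF-1 alpha is set mainly by protein stability, which was not measured. Epas1, which encodes HIF-2 alpha, was listed at 3 reads in T1 replicate 3 and at 0 in the other 5 libraries. Vhl (chr6:113623959-113631633, plus strand), which marks hydroxylated HIF for destruction, had 317.4, 283.7 and 262.5 in T1 and 353.5, 376.8 and 352.6 in T2 libraries. Its groups did not overlap, and its log2 fold change of -0.33 ± 0.12 (SE) missed the threshold, with a limma adjusted p of 0.0374.

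Of the prolyl hydroxylases, Egln3 passed and Egln1 did not. Egln3 (chr12:54178981-54203860, minus strand), itself a HIF target, had 529.0, 495.7 and 521.2 normalized counts in T1 and 3381, 3071 and 3442 in T2 libraries. The T2 libraries were all several times higher and both groups were tight. The T2 mean was 6.40 times the T1 mean, with a log2 fold change of -2.67 ± 0.08 (SE) and a limma adjusted p of 4.00e-09, the smallest of the 30 genes. Egln1 (chr8:124908587-124949324, minus strand), the main HIF hydroxylase in most cells, had 3146, 3134 and 3042 in T1 and 2661, 2662 and 2137 in T2 libraries. Its T1 values were all higher, but the log2 fold change of 0.33 ± 0.09 (SE) fell just outside the threshold, with a limma adjusted p of 0.0116. Per length, Egln3 was 18.3% ± 0.621 (SD, n = 3) of the level of the pair in T1 and 64.2% ± 3.90 in T2 cells, without overlap (exact permutation p = 0.1, two-sided).

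**Figure D4:**
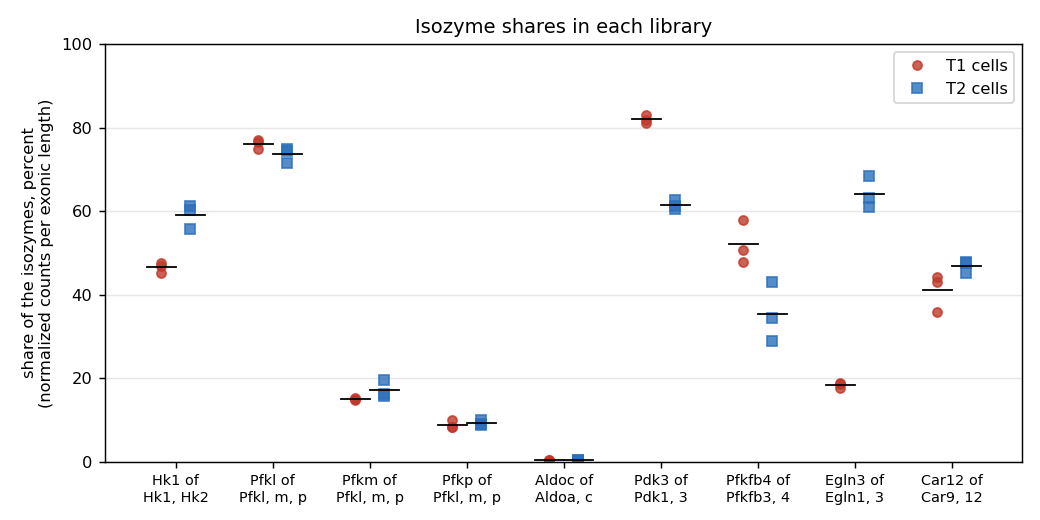
Share in percent of each isozyme in the summed level per exonic length of the genes named under it, in the 3 T1 (circles) and 3 T2 (squares) libraries, with a black line at each mean. Egln3, Pdk3, Hk1 and Pfkfb4 show separate groups, with Egln3 at 18.3% in T1 and 64.2% in T2 cells, while Pfkl, Pfkp and Aldoc overlap.

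In all, 9 isozyme shares were compared, and 6 had ranges without overlap, each at the smallest exact permutation p of 0.1 (two-sided), so none could pass 0.05 in this design (0.15 after Benjamini-Hochberg adjustment over the 9 exact tests). No share was formed for Ldhb, Epas1 or Eno2, whose own row or partner was not tested or absent.

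Of the 7 genes listed as HIF targets, 6 were tested and 4 passed, 3 higher and 1 lower in T1 cells, where 49.5% of all genes passed. Egln3 and Pdk1, also HIF targets, were counted above under other roles, and both were lower in T1 cells. They are not the only such genes, as HIF also switches on many glycolytic enzymes. Of the 16 tested genes of the enzyme path, 1 was higher in T1 (Pfkfb4), 4 were lower and 11 did not pass. Car9 (chr4:43506966-43513729, plus strand) and Car12 (chr9:66713686-66766845, plus strand) encode carbonic anhydrases on the cell surface that move acid out of hypoxic tumor cells. Car9 had 840.1, 832.4 and 978.9 normalized counts in T1 and 96.9, 94.2 and 121.6 in T2 libraries. The T1 mean was 8.48 times the T2 mean, with no overlap, a log2 fold change of 3.08 ± 0.14 (SE) and a limma adjusted p of 5.75e-08. Car12 had 2086, 2172 and 1811 in T1 and 262.4, 284.6 and 364.7 in T2 libraries. It too was higher in every T1 library, 6.66 times on average, with a log2 fold change of 2.74 ± 0.13 (SE) and a limma adjusted p of 7.79e-08. Within the pair, Car12 was 41.0% ± 4.44 (SD, n = 3) per length in T1 and 46.8% ± 1.53 in T2 cells.

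Bnip3 (chr7:138890836-138909519, minus strand), a mitochondrial outer membrane protein that promotes mitophagy, went the other way. It had 296.3, 428.7 and 385.5 normalized counts in T1 and 1770, 1328 and 1621 in T2 libraries. Every T2 library was above every T1 library, 4.25 times on average, and the log2 fold change was -2.09 ± 0.15 (SE), with a limma adjusted p of 1.32e-06. Without T1 replicate 1 it was -1.94. In all, 47.2% of the 50-base words of its exons occurred in other annotated genes, among them a gene that overlaps its exons on the other strand. Part of its reads may thus be shared with other genes.

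Ddit4 (chr10:59949669-59951834, minus strand), a stress-induced inhibitor of mTORC1, had 1600, 2012 and 4079 normalized counts in T1 and 568.9, 1056 and 559.5 in T2 libraries. T1 replicate 3 and T2 replicate 2 were the high libraries of their groups, and the groups did not overlap. The log2 fold change was 1.76 ± 0.33 (SE), with a limma adjusted p of 0.000868, and 1.37 without T1 replicate 3. Ndrg1, a hypoxia-induced gene linked to differentiation, was also highest in T1 replicate 3, at 9038 against 4759 and 5227 in the other T1 libraries and 3425 to 4894 in T2 libraries. It did not pass, and its log2 fold change of 0.58 ± 0.21 (SE) was 0.30 without T1 replicate 3. Ankrd37, a small ankyrin repeat gene, was at 74.7 ± 9.16 (SD, n = 3) in T1 and 121 ± 19.97 in T2 cells, and its log2 fold change of -0.69 ± 0.20 (SE) fell just outside the threshold, with a limma adjusted p of 0.0110. Adm, which encodes the vasodilator adrenomedullin, was listed at 2 reads in T2 replicate 1 and at 0 in the other 5 libraries.

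Beside these targets, 24 of 30 other hypoxia responsive genes were tested, and 18 (75.0%, beside 49.5% of all genes) passed, 7 higher and 11 lower in T1 cells. Their direction was mixed, as it was among the HIF targets described above, with a median log2 fold change of 0.13. Stc1, a secreted glycoprotein hormone, was at 8.63 ± 3.61 (SD, n = 3) in T1 and 312 ± 19.0 in T2 cells, with a log2 fold change of -5.10 ± 0.30 (SE). Vegfa, the main inducer of vessel growth, had 753.4, 822.1 and 1548 normalized counts in T1 and 2120, 5773 and 2024 in T2 libraries. T2 replicate 2 was far above the others, and the log2 fold change of -1.56 ± 0.38 (SE), with a limma adjusted p of 0.00455, was -1.07 without it. The Vegfa call was lost without T1 replicate 1 and without T1 replicate 2 (adjusted p of 0.0195 and 0.0173 in limma). Kdm3a, a histone demethylase, was lower in T1 cells, with a log2 fold change of -1.41 ± 0.08 (SE).

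On the other side, P4ha2, which hydroxylates collagen, was at 214 ± 24.9 (SD, n = 3) in T1 and 6.99 ± 5.01 in T2 cells, with a log2 fold change of 4.98 ± 0.45 (SE). Bhlhe40, a circadian and hypoxia repressor, was at 3379 ± 1101 in T1 and 318 ± 170 in T2 cells, with a log2 fold change of 3.47 ± 0.33 (SE). Edn1, which encodes endothelin, had 231.3 to 276.2 normalized counts in T1 libraries, and 0, 4 and 0 reads in T2 replicates 1, 2 and 3. Its fitted log2 fold change of 7.21 ± 0.56 (SE) ranged from 5.41 to 7.99 over the alternative settings. The bar plot of hypoxia genes places Car9, Car12 and Ddit4 on the same side as these genes, and Egln3, Bnip3 and Pdk1 on the side of Stc1, Vegfa and Kdm3a.

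**Figure D5:**
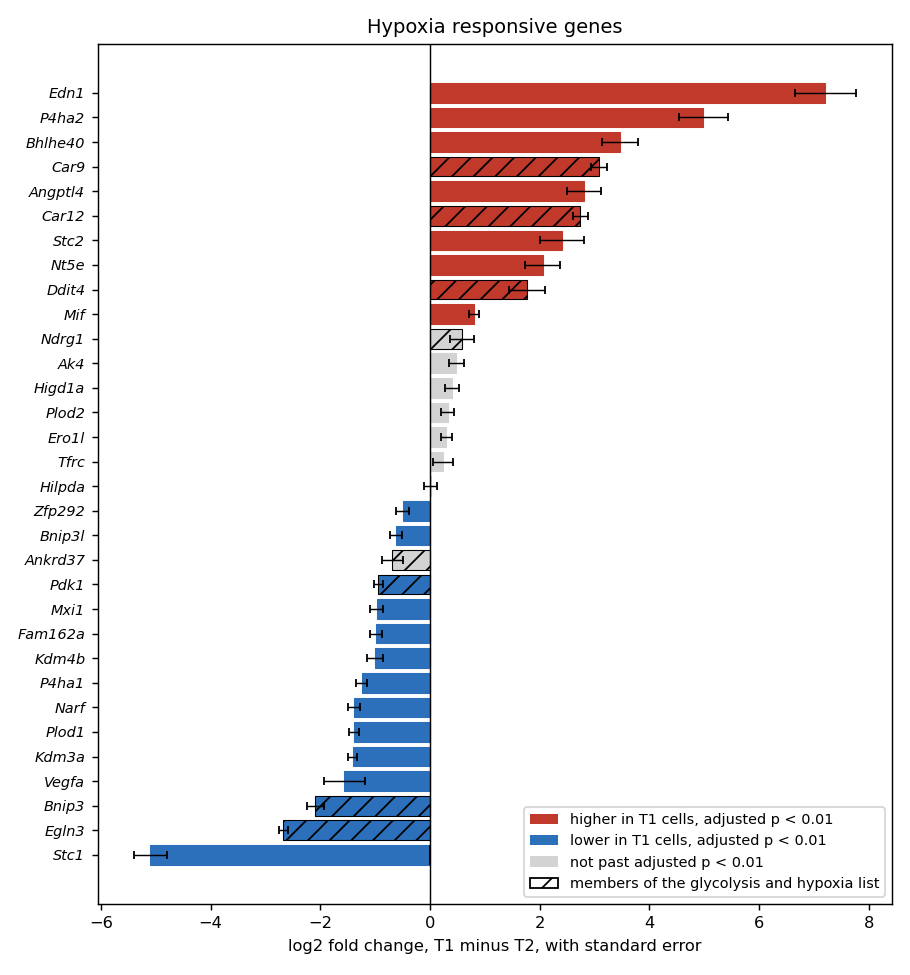
Log2 fold change (T1 minus T2) with its standard error for 24 other hypoxia responsive genes and for the 6 tested HIF targets with Egln3 and Pdk1 (hatched). Glycolytic enzymes are not drawn here. Bars to the right are higher in T1 and bars to the left lower in T1 cells, and the hatched bars fall on both sides, from 3.08 for Car9 to -2.67 for Egln3.

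The remaining genes that control HIF gave 3 higher and 2 lower of 10 tested, a share close to the 49.5% of all genes. Cited2, which competes with HIF for a coactivator, rose from 2518 ± 363 (SD, n = 3) in T2 to 8575 ± 902 in T1 cells, with a log2 fold change of 1.77 ± 0.12 (SE). Siah2, a ubiquitin ligase for prolyl hydroxylases such as the Egln3 protein, and Cul2, the scaffold of the Vhl ligase, were higher in T1 cells, with log2 fold changes of 1.10 ± 0.19 (SE) and 0.54 ± 0.08 (SE). Arnt, the constant partner of HIF, was lower in T1 cells at -0.43 ± 0.10 (SE), and so was Egln2 at -0.31 ± 0.08 (SE). Arnt passed in 12 and Egln2 in 8 of 17 settings, and the Arnt call was lost when T1 replicate 1, T1 replicate 2, T2 replicate 2 or T2 replicate 3 was left out (adjusted p of 0.0201, 0.0165, 0.0129 and 0.0209 in limma). The Egln2 call was lost with any 1 replicate left out (highest adjusted p of 0.0380 in limma).

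Around the enzyme path, 2 of 4 tested transporters passed, both lower in T1 cells, a share close to the 49.5% of all genes. Slc2a1, the GLUT1 glucose importer that feeds hexokinase, was at 2849 ± 268 (SD, n = 3) in T1 and 3766 ± 297 in T2 cells, with a log2 fold change of -0.40 ± 0.09 (SE). Slc2a8 had a log2 fold change of -1.42 ± 0.29 (SE). They passed in 12 and 15 of 17 settings, and without T2 replicate 1 neither passed (adjusted p of 0.0184 and 0.0112 in limma). Slc2a1 was also lost without T1 replicate 1, T1 replicate 2 or T2 replicate 2 (adjusted p of 0.0157, 0.0153 and 0.0112 in limma), and Slc2a8 without T2 replicate 3 (adjusted p of 0.0103 in limma). The pentose phosphate and glycerol branches, which draw on the same sugars, gave 7 of 11 tested, all higher in T1 cells (63.6% called, beside 49.5% of all genes), led by Rpia at 1.10 ± 0.13 (SE), Tkt at 0.95 ± 0.07 (SE) and Taldo1 at 0.88 ± 0.08 (SE). Other glycolytic enzymes gave 4 higher and 1 lower of 10 tested, a share close to the 49.5% of all genes. Tigar, which lowers fructose 2,6-bisphosphate and so opposes Pfkfb4, was higher in T1 cells at 1.52 ± 0.15 (SE), as were Bpgm at 1.34 ± 0.18 (SE) and Eno3, the muscle enolase, at 1.05 ± 0.07 (SE). Pgam2 was lower at -1.73 ± 0.28 (SE). Among the glycogen genes, Pgm1 was higher in T1 cells at 0.39 ± 0.09 (SE) and Pgm2 was lower at -0.89 ± 0.12 (SE). The Pgm1 call was lost without T1 replicate 2, T2 replicate 1 or T2 replicate 2 (adjusted p of 0.0164, 0.0112 and 0.0102 in limma). The 7 lists together gave 48 of 77 tested genes (62.3%, beside 49.5% of all genes), 28 higher and 20 lower in T1 cells, with adjusted p from the same limma fit.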

How the data were processed

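Total RNA of T1 and T2 cells was enriched for poly(A) and sequenced on an Illumina HiSeqX in 150 bp paired reads. Per the labels and the study's methods, the authors trimmed reads with Trimmomatic, mapped them with TopHat2 (mm10), used HTSeq for counting and deposited normalized counts (signal scaled by the DESeq2 median of ratios); whether counting used strand is not given in the sources used here. Columns were matched to samples by the names in the labels, and 0 columns were left unused. Values were whole multiples of 1 read for 100% of entries (tolerance 0.01 reads), so reads were recovered. Here log2(normalized count + 1) was fitted with limma 3.58.1 (mean-variance trend, R 4.3.3) for 11514 genes with a mean of at least 10, with Benjamini-Hochberg adjustment over all of them and a threshold of 0.01. As an alternative on the recovered reads, edgeR 4.0.16 (quasi-likelihood) called 5716 genes and DESeq2 1.42.0 called 6067, against 5701 in limma. Shares were compared with exact permutation tests (scipy 1.17.1). Positions and exonic lengths came from GENCODE on GRCm38. The fits were tested on simulated data.

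The members and gene lists were chosen with earlier results of these data known. Values in every sample are given for members past an adjusted p of 0.01 with an absolute log2 fold change above 1 and for Hif1a, Epas1, Gapdh, Ldha, Ldhb, Hk1, Hk2, Pkm, Car9, Vhl and Egln1. Pdk1, Pdk3 and Ndrg1 were given likewise, and Eno1b and Iffo1 named, after their values were seen. Of each other list, up to 3 called genes in each direction are named, and Mpc1 and Pdpr were named after their values were seen. A result of the glycogen list is not reported here. Alternatives were the pseudocount, the filter, the scaling, the tool, the replicate block and each replicate left out.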

Additional observations from a re-analysis of the deposited data

How the results depend on the processing

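Among the 30 tested members, 11 of the 13 calls held in all 17 alternative settings, and the scalings moved no call of the 6 members beyond a log2 fold change of 2. Pkm lost its call in 9 settings (no filter, quantile normalization, no variance trend, the replicate block and 5 of 6 left-out replicates) and Pfkfb4 in 3. The genes called were 964 and the members 6 under an adjusted p of 0.01 with an absolute log2 fold change above 2, and 2445 and 8 under an adjusted p of 0.05 with one above 1. The other pathway genes called were 8 and 24 under these rules, an alternative chosen after seeing the data. The second rule changes the p threshold and adds a size of effect, and 2332 of its 2445 genes were among the 5701. Leaving out 1 replicate gave 4656 to 5797 genes, 11 to 14 members and 40 to 48 other pathway genes, an enzyme path difference of -0.132 to -0.0811 percentage points, and isozyme differences (T1 minus T2, percentage points) of -14.2 to -11.5 for Hk1, 1.45 to 3.20 for Pfkl, -2.88 to -0.898 for Pfkm, -0.957 to -0.0450 for Pfkp, -0.0676 to 0.0640 for Aldoc, 20.1 to 21.2 for Pdk3, 13.4 to 20.4 for Pfkfb4, -47.5 to -43.7 for Egln3 and -7.40 to -3.29 for Car12. Without division by length, the differences were 25.6 for Pdk3 and -42.8 for Egln3. Which form of a pair was the larger also depended on this division. Without it, Pdk3 held 34.4% in T2 cells, and Hk1 held 55.4% and Pfkfb4 41.3% in T1 cells. Car12 then held 69.5% in T1 and 74.4% in T2 cells.

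Signs changed for 4 members near 0, none of them called. Pfkfb3 was -0.075 without T1 replicate 1 and -0.042 without T1 replicate 2 (range over left-out replicates -0.075 to 0.37). Aldoa was -0.016 with total reads, -0.00095 with TMM, -0.0042 in edgeR, -0.0019 in DESeq2, and -0.013, -0.014 and -0.066 without T1 replicate 2, T1 replicate 3 and T2 replicate 3 (-0.066 to 0.065). Aldoc was 0.018 in edgeR, 0.021 in DESeq2, and 0.23 and 0.024 without T1 replicate 2 and T2 replicate 3 (-0.36 to 0.23). Pdha1 was -0.0037 with quantile normalization and -0.0098 without T1 replicate 2 (-0.0098 to 0.040).

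Replicate numbers were shared by T1 and T2 samples. Deviations of same-numbered samples correlated at 0.057, 0.172 and 0.104, all positive, and those of differently numbered samples at -0.152 to 0.072. The study's methods describe no pairing, so the numbers were not taken as pairs, and whether they mark shared handling was not tested. T2 replicate 1 correlated better with T1 replicate 3 (0.072) than with its own number. With the replicate block, 5780 genes, 14 members and 50 other pathway genes were called, with Egln1 and Ankrd37 gained and Pkm lost.

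A count of 3 reads in a library was taken as a floor, which is a chosen value and not a measured limit of detection, and it removed no gene. Members under a mean of 10 normalized counts were left out of the reported fit by choice. With no filter on low counts, 34 members were fitted and 12 passed.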
